A study of Mus musculus with 40 samples.

Results

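The response of the mouse mammary gland to dietary conjugated linoleic acid was set against its response to estrogen, gene by gene, as the difference between the CLA effect and the estrogen effect. All 20 libraries of the later sampling times entered the comparison, of 40 in the series, in 4 groups of 5 mice. CLA mice ate a purified diet labelled as holding 2.7% as CLA and were sampled at 132 h; their controls ate the purified diet and were sampled at 132 h. Estrogen mice ate the control diet, drank water with 200 nM estrogen and were sampled at 84 h; their controls ate the control diet and were sampled at 84 h. All were Balb/cJ mice ovariectomised at 21 days of age and left 7 days to recover, so no group had ovaries, and the tissue was the number 4 inguinal gland without its lymph node.

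Estrogen acts through its nuclear receptor, which within the epithelium of the mammary gland sits in a subset of luminal cells. It drives the elongation of the ducts, in large part through the growth factor amphiregulin, released by the receptor-bearing cells and acting on the EGF receptor of neighbouring cells. CLA is a group of isomers of linoleic acid that is known in mice for depleting fat stores, and the mammary gland of a young mouse is a small epithelial tree in a pad of fat. Removing the ovaries takes away the main source of estrogen, so that growth seen with CLA in such mice raises the question of which genes it shares with the hormone.

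Each gene was placed by 3 tests in 1 fit: the CLA effect (CLA at 132 h over control at 132 h), the estrogen effect (estrogen at 84 h over control at 84 h) and the difference between them, CLA minus estrogen. Effects are log2 fold changes with their standard errors, levels are counts per 1000000 of the TMM-scaled library (CPM), and adjusted p-values are Benjamini-Hochberg values of edgeR's quasi-likelihood test over 17180 genes, with a threshold of 0.05. Verbs of change are kept for genes past that threshold. A gene responded alike where both effects were called with the same sign and the difference was not called, in the same direction but unequally where the difference was called too, and oppositely where both were called with opposite signs. It responded to 1 agent only where 1 effect and the difference were called and the other effect was not. The agents were sampled at different times and with separate controls, so agent and time cannot be told apart, and a difference that missed the threshold does not show that the effects were equal.

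Total counts per library, in units of 1000000, ran from 18.2 to 32.8. The animal numbers in the titles fall into 4 runs, and all 5 estrogen libraries belong to a run that holds no control, so that run and estrogen cannot be told apart. The share of counts from mitochondrial genes was 4.13 to 7.91% with CLA, against 7.75 to 9.67% in the controls at 132 h. It was 6.35 to 9.23% with estrogen, against 8.29 to 8.60% in the controls at 84 h. Genes of skin and hair, tissues beside the gland, differed more between libraries than any other list (26 genes, 21 of them tested). Their mean level was −1.63 to −0.03 log2 CPM with CLA, against −1.83 to 6.15 in the controls at 132 h. With estrogen it was −1.21 to 3.66, against −1.93 to 1.51 in the controls at 84 h. A level above 1.5 marked 7 libraries, 3 controls at 132 h, 3 estrogen libraries and 1 control at 84 h, and none with CLA. Results are therefore also given without these 7, which leaves 5 CLA libraries and 2 of their controls, and 2 estrogen libraries and 4 of their controls. Skeletal muscle genes varied nearly as widely, with the highest levels in controls 1 and 2 at 132 h and control 5 at 84 h. Genes of the fat cell were abundant in every library, with list means from 8.85 to 10.4 log2 CPM. The part of skin in any result was not tested beyond that and a fit with the skin level as a covariate.

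The CLA effect was called for 9613 genes (4638 higher, 4975 lower; 56% of genes tested) and the estrogen effect for 931 (592 higher, 3.45% of genes tested, and 339 lower; 5.42% in all). A called difference between them was found in 6536 genes (38%), 3289 with the higher value for CLA and 3247 with the lower. Both effects were called with the same sign in 530 genes (3.08%), of which 274 responded alike (1.59%) and 256 unequally (1.49%). Opposite responses were called in 113 genes (0.658%). CLA only changed 5687 genes (33.1%; 2843 higher, 2844 lower), and estrogen only changed 173 (1.01%; 104 higher, 69 lower). Of the rest, 3283 were called for CLA and 115 for estrogen without a called difference, 307 had only the difference called and 6972 had no call (40.6%).

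Of the 592 genes higher with estrogen, 61.3% were also higher with CLA and 9.29% lower, where 27% and 29% of all genes tested were higher and lower with CLA. Of the 339 genes lower with estrogen, 49.3% (167 genes, 0.972% of genes tested) were also lower with CLA and 17.1% higher. Seen from the other side, the 363 shared higher genes were 7.83% of the genes higher with CLA, and the 167 shared lower genes 3.36% of those lower with CLA. Among the 256 unequal genes, CLA had the larger effect in 193 that rose and 58 that fell, and estrogen in 5 that rose and 0 that fell (edgeR's quasi-likelihood test). The smaller number of estrogen calls bounds the size of every shared class.

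**Figure D1:**
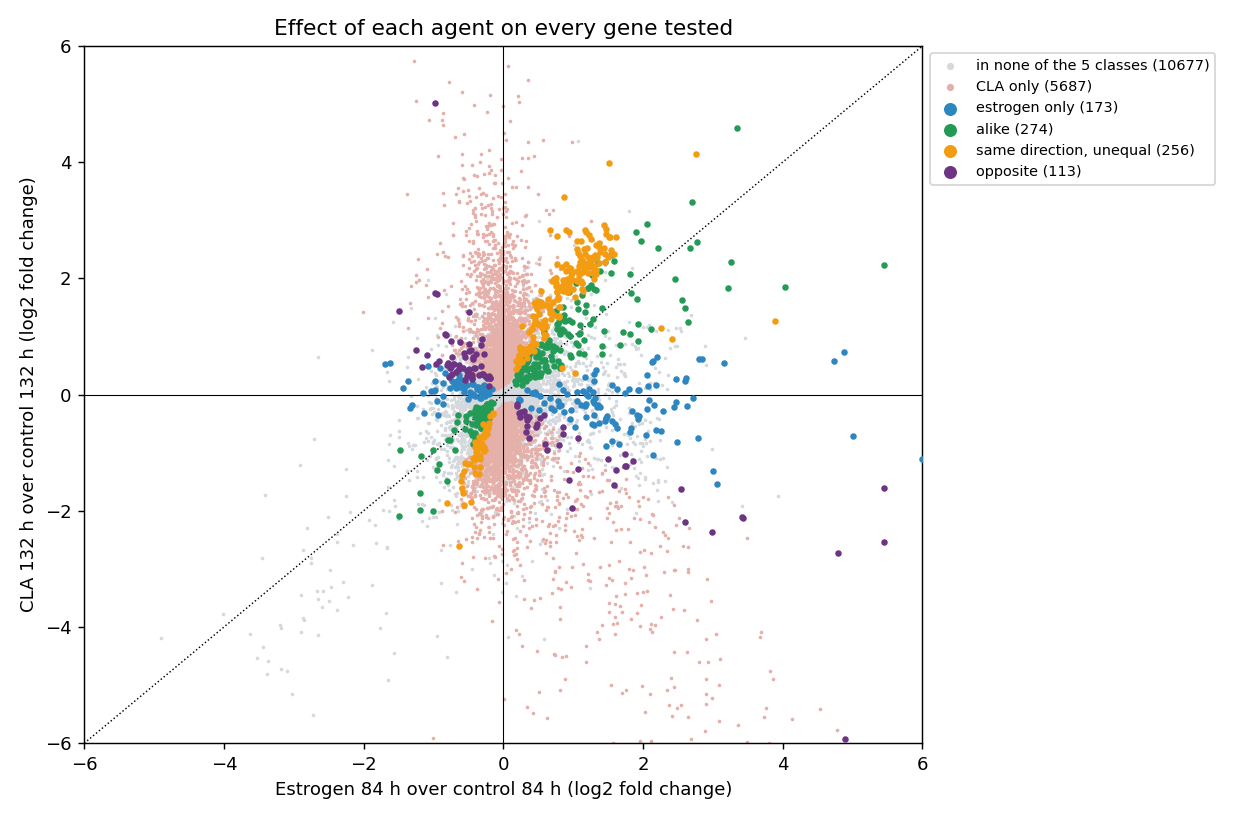
Log2 fold change of each gene with estrogen at 84 h (x axis) and with CLA at 132 h (y axis), 1 point per gene, coloured by class; the dotted line marks equal effects, and 132 genes beyond 6 log2 units are not drawn. The 256 unequal genes lie mostly above the line at the upper right, while the 5687 genes changed by CLA only form a band along the vertical axis.

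The median CLA and estrogen effects were +0.82 and +0.75 in the 165 genes that rose alike, and −0.36 and −0.30 in the 109 that fell alike. In the 198 unequal genes that rose they were +1.83 and +0.85. How close the effects of the alike genes could be shown to be varied. The 95% interval of the difference lay within 0.5 log2 units of 0 for 124 of the 274 (45.3%) and within 1 unit for 209 (76.3%). Its median width to either side was 0.49 in the genes that rose and 0.22 in those that fell. These directions rest on the scaling in part: with upper-quartile scaling the difference was called higher in 2740 genes and lower in 4039, and on log2(RPKM + 0.1) higher in 4263 and lower in 2329. With upper-quartile scaling the median difference over all genes was −0.10, and the CLA effect split into 4151 higher and 5618 lower. On log2(RPKM + 0.1) the CLA effect split into 6381 and 3114, and the estrogen effect into 798 and 131, against 712 and 231 with upper-quartile scaling.

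Without the 7 libraries high in skin genes, 139 of the 530 shared genes were still called with both agents, while both effects kept their sign in all 530. Of the 165 genes that rose alike, 146 were still called for CLA and 47 for estrogen. Of the 109 that fell alike, 89 were still called for CLA and 1 for estrogen. The opposite genes that were lower with CLA and higher with estrogen lost more: of 55, 37 kept the sign of the CLA effect, and the median CLA effect went to −0.26 without those libraries, against −1.28 with them. Of the 58 opposite genes that were higher with CLA, all kept both signs, 39 were still called for CLA and 3 for estrogen. The estrogen effect then rests on 2 estrogen libraries and the CLA effect on 2 controls.

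Genes of cell division rose with both agents. All 24 genes of a list of mitosis genes rose with CLA and 23 with estrogen, and the rise with CLA was the larger in 23. The median effects were +2.27 with CLA and +1.20 with estrogen, a median difference of +1.07, against −0.03, −0.01 and −0.03 over all genes tested. Of all genes tested, 27% rose with CLA, 3.45% rose with estrogen and 19.1% had the higher effect with CLA. Of the 24, 22 were unequal, Cenpf was alike and Cenpa was changed by CLA only. The list's mean level lay between 4.52 and 4.98 log2 CPM in the CLA libraries and between 2.11 and 2.79 in their controls. It lay between 3.19 and 3.72 in the estrogen libraries and between 2.04 and 2.55 in theirs, so that neither pair of groups overlapped.

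Ccnb2 encodes cyclin B2, a partner of the kinase that starts mitosis (chr9:70407692-70421547, minus strand, GRCm38). It had 21.3, 24, 29.2, 23.2 and 22.9 CPM with CLA, against 4.84, 4.6, 4.04, 4.02 and 3.3 CPM in the controls at 132 h. With estrogen it had 7.34, 10.7, 10.8, 13 and 9.0 CPM, against 3.76, 3.24, 3.5, 4.86 and 4.23 CPM in the controls at 84 h. Every treated library lay above every control of its pair, and the CLA libraries lay above the estrogen libraries. The effects were +2.53 ± 0.15 (adjusted p = 1.5e-10) and +1.37 ± 0.15 (adjusted p = 2.8e-05), and they differed by +1.17 ± 0.20 (adjusted p = 0.000204).

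Cdk1, that kinase, averaged 34.1 ± 3.14 CPM with CLA and 7.49 ± 0.675 CPM in its controls (SD, n = 5 each), and 13.4 ± 2.36 CPM with estrogen and 6.0 ± 1.41 CPM in its controls. Its effects were +2.19 ± 0.14 and +1.15 ± 0.14, with a difference of +1.04 ± 0.20 (adjusted p = 0.000404). Top2a, the topoisomerase that untangles replicated chromosomes, rose (+2.37 ± 0.18 with CLA and +1.29 ± 0.18 with estrogen), a difference of +1.08 ± 0.25 (adjusted p = 0.0022). The proliferation marker Mki67 rose (+2.09 ± 0.22 with CLA and +1.22 ± 0.22 with estrogen). Its difference of +0.88 ± 0.30 (adjusted p = 0.0277) was lost on leaving out CLA library 3, estrogen library 5 or control library 4 or 5 at 84 h. Spdl1, which brings dynein to the chromosomes' attachment sites, and Incenp, a scaffold of the chromosomal passenger complex, were among the unequal genes that met the naming rule. Spdl1 had effects of +2.84 ± 0.16 and +0.90 ± 0.15, and Incenp of +1.53 ± 0.08 and +0.53 ± 0.08; both differences were called (adjusted p = 1.28e-06 and 1.87e-06).

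The pair that stood outside the unequal class marks its edges. Cenpa, the histone variant of the centromere, rose with CLA (+1.85 ± 0.18), while its estrogen effect of +0.37 ± 0.18 was not called (adjusted p = 0.241), and the difference was called (adjusted p = 0.00017). Cenpf, a protein of the kinetochore, rose with both (+2.12 ± 0.23 and +1.38 ± 0.23), with a difference of +0.74 whose 95% interval ran from +0.07 to +1.42 (adjusted p = 0.0761). With those 7 libraries left out the mitosis list had median effects of +2.64 and +1.19, with 24 genes called for CLA and 21 for estrogen.

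Genes of DNA replication shared the rise less evenly. Of 24, 23 rose with CLA, 13 with estrogen and 21 had the higher effect with CLA, with median effects of +1.38 and +0.46. With the 7 libraries high in skin genes left out, 23 rose with CLA, 6 with estrogen and 14 had the higher effect with CLA, with medians of +1.36 and +0.53. The shares over all genes tested are those given with the mitosis list. Mcm6, a subunit of the replicative helicase, had 34, 67.2, 66.2, 46 and 47.4 CPM with CLA, against 12.6, 9.26, 9.32, 7.23 and 9.53 CPM in its controls. It had 23, 16.3, 18.7, 22 and 12 CPM with estrogen, against 6.51, 8.57, 8.1, 11.3 and 9.16 CPM in its controls. No treated library overlapped its controls, and the effects were +2.44 ± 0.21 and +1.07 ± 0.21, with a difference of +1.37 ± 0.29 (adjusted p = 0.00111). Pcna, the clamp that holds the polymerase on DNA, was changed by CLA only. It averaged 46.7 ± 6.69 CPM with CLA and 16.1 ± 0.609 CPM in its controls, and 19.3 ± 2.19 CPM with estrogen and 16.5 ± 0.918 CPM in its controls. Its CLA effect was +1.53 ± 0.09 (adjusted p = 1.5e-10) and its estrogen effect +0.23 ± 0.09 (adjusted p = 0.148), which differed by +1.31 ± 0.13 (adjusted p = 3.21e-07). Cdc45, a partner of the helicase, was alike at +0.33 and +0.38.

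The promoters of these genes are shown because their members moved together. Each line below is sequence just before the annotated start, on the gene's own strand, from RefSeq on GRCm38.p6. Capitals mark the CCAAT box (CCAAT, or ATTGG on the other strand) and the cell cycle homology region (TTTGAA or TTCGAA, or TTCAAA on the other strand) in the 3 mitosis genes, and in Mcm6 the CCAAT box and the E2F site (TTTGGCGC, TTTCCCGC or TTTCGCGC, either strand, overlapping matches joined). The Ccnb2 line holds no cell cycle homology region, because its TTTGAA begins 167 bases before the start, outside the bases shown.
Ccnb2 (chr9:70421555-70421674, minus strand): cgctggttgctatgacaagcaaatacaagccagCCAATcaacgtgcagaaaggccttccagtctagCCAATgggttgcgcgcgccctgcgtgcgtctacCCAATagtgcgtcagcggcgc
Cdk1 (chr10:69352913-69353032, minus strand): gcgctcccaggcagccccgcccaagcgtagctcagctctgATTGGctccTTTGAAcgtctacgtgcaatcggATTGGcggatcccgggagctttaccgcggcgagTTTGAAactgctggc
Top2a (chr11:99024190-99024389, minus strand): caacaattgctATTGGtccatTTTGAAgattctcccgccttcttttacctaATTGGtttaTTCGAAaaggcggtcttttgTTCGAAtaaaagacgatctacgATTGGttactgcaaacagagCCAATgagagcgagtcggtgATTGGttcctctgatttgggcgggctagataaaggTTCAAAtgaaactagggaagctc
Mcm6 (chr1:128359706-128359825, minus strand): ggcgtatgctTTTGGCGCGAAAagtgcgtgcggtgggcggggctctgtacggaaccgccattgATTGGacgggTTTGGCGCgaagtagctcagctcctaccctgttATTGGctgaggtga
Windows of 250 bases before to 50 after the start were found for 12277 of the 17180 genes tested and for 21 of the 24 mitosis genes. Only the 250 bases before the start were searched. A CCAAT box was in 18 of these 21 (85.7%) and in 35.5% of all the promoters, and the cell cycle homology region in 8 (38.1%) and 12.6%. The 2 motifs do not overlap in letters. In the DNA replication list 19 of 24 had a promoter, under 80% and so too few for a share of that list to be given. The E2F site was in 2.66% of all the promoters, which also cover under 80% of the genes tested. The counts describe letters and name no factor.

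**Figure D2:**
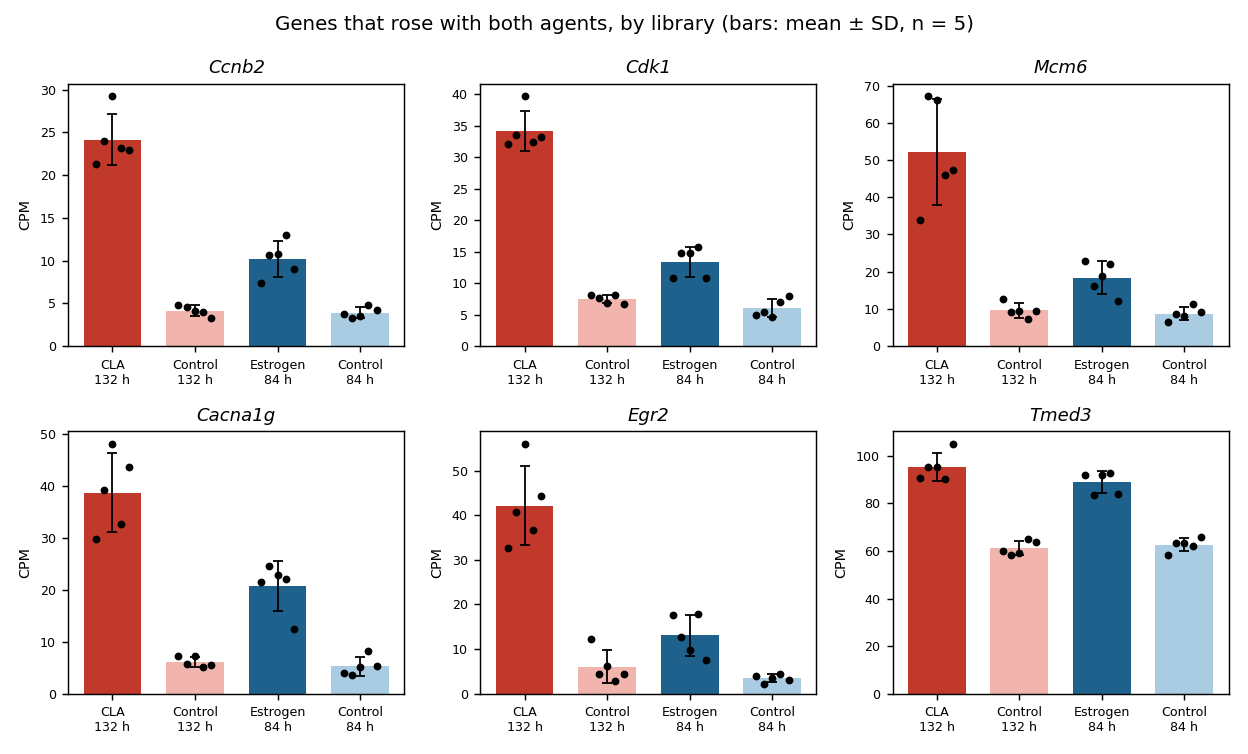
CPM by library (points) with the mean and SD of 5 mice (bars) in CLA at 132 h, control at 132 h, estrogen at 84 h and control at 84 h. Ccnb2, Cdk1 and Mcm6 rose with both agents and further with CLA, while Cacna1g, Egr2 and Tmed3 had no called difference between the effects.

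Outside the cell cycle, the genes that rose alike had varied roles. Cacna1g encodes the pore subunit of a low-voltage (T-type) calcium channel (chr11:94408391-94474198, minus strand, GRCm38). It had 29.7, 39.2, 48, 32.7 and 43.6 CPM with CLA, against 7.19, 5.74, 7.24, 5.07 and 5.62 CPM in its controls. With estrogen it had 21.6, 24.6, 22.7, 22.1 and 12.4 CPM, against 3.92, 3.62, 5.17, 8.15 and 5.42 CPM in its controls. Neither pair overlapped, and the CLA libraries also lay above the estrogen libraries. The effects were +2.64 ± 0.22 and +1.97 ± 0.21, and the 95% interval of the difference ran from +0.06 to +1.29 (adjusted p = 0.0787). Such an interval is not adjusted for the number of genes, so it can leave out 0 where the adjusted p misses the threshold, as it did for Cacna1g, Stac2 and Cenpf.

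Stac2, a small adaptor that binds calcium channels, averaged 28.3 ± 4.76 CPM with CLA and 5.72 ± 1.17 CPM in its controls, and 14.8 ± 3.7 CPM with estrogen and 4.9 ± 1.78 CPM in its controls. Its effects were +2.30 ± 0.23 and +1.59 ± 0.23, with an interval of the difference from +0.06 to +1.36. Tmed3, which carries cargo between the endoplasmic reticulum and the Golgi, had small errors in both effects. It had 90.5, 95.4, 95.2, 90.1 and 105 CPM with CLA, against 59.9, 58.2, 59.2, 64.9 and 63.5 CPM in its controls, and 92.1, 83.5, 92, 92.7 and 84 CPM with estrogen, against 58.3, 63.4, 63.3, 62 and 65.7 CPM in its controls. The libraries of each group lay within a narrow range, and the effects of +0.64 ± 0.05 and +0.51 ± 0.05 left an interval of the difference from −0.02 to +0.29. Plk2, a polo-like kinase, rose (+1.09 ± 0.12 with CLA and +0.86 ± 0.12 with estrogen), and Spon2, a secreted matrix protein, did so too (+1.19 ± 0.16 and +1.09 ± 0.16). The chromatin protein Hmgb2 (+1.28 ± 0.14 and +0.93 ± 0.14) and the cohesin acetyltransferase Esco2 (+1.80 ± 0.20 and +1.32 ± 0.20) also rose alike. These 7 genes kept both calls without the libraries high in skin genes and on leaving out any 1 library.

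Egr2, a zinc finger transcription factor known from the myelinating cells of nerves, had 32.8, 40.7, 56, 36.8 and 44.4 CPM with CLA, against 12.3, 4.37, 6.16, 2.86 and 4.44 CPM in its controls. It had 17.5, 12.6, 9.87, 17.9 and 7.52 CPM with estrogen, against 4.05, 2.14, 3.58, 4.54 and 3.14 CPM in its controls. Treated libraries lay above their controls in both pairs, with the CLA libraries the highest. The effects were +2.80 ± 0.34 (adjusted p = 1.42e-06) and +1.90 ± 0.33 (adjusted p = 0.00242), and the interval of the difference was wide, from −0.06 to +1.86. Among the other 9 genes of the nerve and Schwann cell list, Mag was called higher for CLA (+0.76) and Sox10, a transcription factor of Schwann cells, for estrogen only (+1.15, not called without the libraries high in skin genes), and the other 7 had no call.

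Egfr, the receptor of amphiregulin, had 114, 109, 106, 101 and 97.7 CPM with CLA, against 94.4, 75, 52.5, 49.8 and 34.6 CPM in its controls. It had 84.4, 90.4, 96.1, 102 and 81.7 CPM with estrogen, against 63.2, 51.6, 62.8, 50.6 and 45 CPM in its controls. Both treated groups lay close together above their controls, which were spread widely at 132 h. The effects of +0.78 ± 0.18 and +0.73 ± 0.18 left an interval of the difference from −0.50 to +0.59; the estrogen call (adjusted p = 0.0252) was lost on leaving out estrogen library 3 or 4 or control library 2 or 5 at 84 h. Leaving out the libraries high in skin genes gave effects of +1.32 and +0.83, both called. Other genes of the family were mixed. Of 14 ligands, receptors and related genes, 2 were higher and 6 lower with CLA and 3 higher with estrogen, and 1 had the higher and 7 the lower effect with CLA. The calls for CLA in this list are near the share of all genes tested, 56%. Leaving out those libraries gave 2 higher and 2 lower with CLA, 2 higher with estrogen and 1 lower effect with CLA, and the list's median CLA effect was +0.42 instead of −0.54. Tgfa, another ligand of the receptor, fell with CLA (−1.66 ± 0.44), with an estrogen effect of +1.23 ± 0.45 that was not called (adjusted p = 0.112), and no effect on it was called without those libraries (CLA effect +0.14, adjusted p = 0.756). Erbb3, a receptor of the neuregulins, rose with estrogen (+1.60 ± 0.38) and not with CLA (−0.51 ± 0.37), and its difference was not called without the libraries high in skin genes (adjusted p = 0.295).

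Only 5 genes rose with both agents and more with estrogen, and 2 of them met the rule for naming. Agps, an enzyme of ether lipid synthesis, had 65.7, 79.8, 84.6, 76.2 and 65.5 CPM with CLA, against 56.2, 54.1, 54.8, 51.2 and 55.1 CPM in its controls. It had 103, 102, 105, 120.4 and 101 CPM with estrogen, against 56.5, 55, 63.7, 61.3 and 59.1 CPM in its controls. The estrogen libraries lay above all others, and the effects of +0.45 ± 0.07 and +0.84 ± 0.07 differed by −0.39 ± 0.10 (adjusted p = 0.0044). Once the libraries high in skin genes were left out the difference was −0.42 and was not called (adjusted p = 0.0813). Amd1, which makes a building block of the polyamines and has a near-identical copy in the mouse genome that could share its reads, had effects of +0.37 ± 0.15 and +1.02 ± 0.15. Its CLA call (adjusted p = 0.0424) was lost on leaving out any of CLA libraries 2, 3 and 4 or control libraries 3, 4 and 5 at 132 h.

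The genes that fell alike did so by small amounts at the median, and those named here by more. Hmcn2, a large matrix protein, had 20.6, 23.2, 13, 21.9 and 13.3 CPM with CLA, against 47.7, 47.7, 33.3, 31.3 and 31.8 CPM in its controls. It had 18.6, 16.8, 21.3, 21.5 and 13.6 CPM with estrogen, against 43.6, 37.3, 53.6, 31.3 and 42.3 CPM in its controls. Both treated groups lay below their controls, with effects of −1.06 ± 0.19 and −1.18 ± 0.19 and an interval of the difference from −0.44 to +0.69. Dbt, a subunit of the complex that breaks down branched-chain amino acids, fell (−0.67 ± 0.09 with CLA and −0.45 ± 0.09 with estrogen), and Vnn1, an enzyme that recycles the vitamin of coenzyme A, did so too (−1.98 ± 0.25 and −1.19 ± 0.24). Igfbp3, a binding protein of the insulin-like growth factors, had effects of −1.49 ± 0.24 (adjusted p = 3.64e-05) and −0.81 ± 0.23. Ehhadh, an enzyme of peroxisomal fatty acid oxidation, fell (−0.96 ± 0.29 with CLA and −1.01 ± 0.29 with estrogen). The estrogen calls of Igfbp3 and Ehhadh stood just inside the threshold (adjusted p = 0.0489 and 0.0498) and were lost on leaving out any of 14 and 16 of the 20 libraries. Of these 5 genes none kept its estrogen call without the libraries high in skin genes, where all 5 kept the call for CLA.

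In 58 genes the fall with CLA was the larger. Aldh6a1, an enzyme of valine breakdown, averaged 87.9 ± 16 CPM with CLA and 318 ± 22 CPM in its controls, and 242 ± 21.3 CPM with estrogen and 333 ± 37.5 CPM in its controls. Its effects of −1.86 ± 0.11 and −0.46 ± 0.10 differed by −1.40 ± 0.15 (adjusted p = 8.74e-07), and the estrogen call was lost without control library 1 at 84 h. Acadsb, an enzyme of isoleucine breakdown, fell (−1.25 ± 0.08 with CLA and −0.34 ± 0.07 with estrogen). For both genes the estrogen effect, −0.27 and −0.19, was not called without the libraries high in skin genes.

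Known targets of the estrogen receptor fell into several classes. Of 20 tested, 6 rose and 4 fell with CLA, 6 rose and 1 fell with estrogen, 3 had the higher and 6 the lower effect with CLA, and the median effects were +0.12 and +0.62. With the libraries high in skin genes left out the medians were +0.88 and +0.72, 6 rose and 2 fell with CLA, 3 rose with estrogen, and 2 had the higher and 2 the lower effect with CLA. The 10 calls of 20 for CLA are near the share of all genes, 56%. Pgr, the progesterone receptor (chr9:8899833-8968611, plus strand, GRCm38), had 0.444, 2.21, 3.39, 3.93 and 0.889 CPM with CLA, against 1.63, 2.22, 1.08, 0.524 and 0.967 CPM in its controls. It had 35.3, 31.9, 45.2, 35.7 and 20.5 CPM with estrogen, against 0.227, 0.619, 0.814, 2.21 and 1.76 CPM in its controls. The estrogen libraries stood apart from all others, and the CLA libraries overlapped their controls. The CLA effect of +0.74 ± 0.55 was not called (adjusted p = 0.267), and the effects differed by −4.14 ± 0.78 (adjusted p = 0.000485). On leaving out the libraries high in skin genes the difference was −3.16 and missed the threshold (adjusted p = 0.0672).

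Areg, amphiregulin (chr5:91139599-91148432, plus strand, GRCm38), had 0.622, 0.561, 2.75, 0.775 and 0.092 CPM with CLA, against 1.54, 1.4, 1.58, 0.0583 and 0.0439 CPM in its controls. It had 13.7, 27.9, 42, 28.1 and 24.3 CPM with estrogen, against 0.0972, 0, 0, 0.128 and 0 CPM in its controls. The estrogen libraries were high and the controls at 84 h at or near 0, while the CLA libraries overlapped controls of which 3, all high in skin genes, were between 1.40 and 1.58 CPM. The estrogen effect was called (adjusted p = 7.2e-05), the CLA effect was −0.02 ± 0.73 (adjusted p = 0.983), and the difference was called (adjusted p = 3.97e-05). With 3 of 5 controls at 84 h at 0 the size of the estrogen fold change is not given. Neither the CLA effect (adjusted p = 0.0634) nor the difference (adjusted p = 0.403) was called without the libraries high in skin genes.

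Greb1 and Cited1 were called with both agents. Cited1, a transcriptional co-factor of the estrogen receptor, had 15.3, 27.4, 38.1, 35 and 29.2 CPM with CLA, against 8.33, 11, 5.93, 3.85 and 7.38 CPM in its controls, and 30.6, 19.6, 36.9, 42 and 23.4 CPM with estrogen, against 1.59, 1.1, 6.27, 12.1 and 6.41 CPM in its controls. Neither pair overlapped, and the effects were +1.98 ± 0.48 (adjusted p = 0.00184) and +2.46 ± 0.49 (adjusted p = 0.00634), with an interval of the difference from −1.86 to +0.90. The CLA call of Cited1 was kept and the estrogen effect, +2.46, missed the threshold without the libraries high in skin genes (adjusted p = 0.0924). Greb1, another co-factor of the receptor, averaged 1.04 ± 0.26 CPM with CLA and 0.541 ± 0.188 CPM in its controls, and 3.2 ± 2.01 CPM with estrogen and 0.842 ± 0.156 CPM in its controls. Its CLA effect of +0.93 ± 0.35 (adjusted p = 0.0299) was lost on leaving out any of 4 libraries, CLA libraries 3 and 5 and control libraries 1 and 4 at 132 h, and its estrogen effect was +1.92 ± 0.33. Without the libraries high in skin genes only the estrogen effect of Greb1 was called. The sequence before the start of Greb1 is shown because it holds a single arm of the estrogen response element, AGGTCA, here read on the other strand as TGACCT in capitals; it is RefSeq sequence on GRCm38.p6.
Greb1 (chr12:16800887-16801006, minus strand): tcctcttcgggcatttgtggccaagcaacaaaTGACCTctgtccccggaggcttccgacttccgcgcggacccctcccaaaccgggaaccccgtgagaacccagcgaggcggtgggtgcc
That arm is in 10.9% of all promoter windows, so that its letters are common and say nothing of binding.

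Esr1, the estrogen receptor itself, averaged 109.6 ± 15 CPM with CLA and 106 ± 5.08 CPM in its controls, and 88.1 ± 12.5 CPM with estrogen and 103 ± 22.7 CPM in its controls. No effect on it was called (adjusted p = 0.75 and 0.326). Myc, a growth regulator listed among the targets, was changed by CLA only. It averaged 45.1 ± 7.81 CPM with CLA and 16.3 ± 0.674 CPM in its controls, and 25.1 ± 3.22 CPM with estrogen and 21.3 ± 4.72 CPM in its controls. The effects were +1.47 ± 0.14 and +0.23 ± 0.14, a difference of +1.23 ± 0.19 (adjusted p = 7.18e-05). Igfbp5 and Rerg were opposite, Igfbp5 higher with CLA (+0.40 ± 0.16) and lower with estrogen (−0.68 ± 0.16), and Rerg lower with CLA (−1.10 ± 0.34) and higher with estrogen (+1.49 ± 0.34). Neither kept any call without the libraries high in skin genes. Igfbp5 also lost its CLA call without CLA library 1 or 4 or control library 1, 2, 3 or 5 at 132 h, and Rerg its estrogen call without estrogen library 3 or control library 1 at 84 h.

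The levels of epithelial genes are given with the skin signal beside them. Of 24 luminal genes, 8 rose and none fell with estrogen, 1 rose and 3 fell with CLA, and 12 had the lower effect with CLA; none had the higher. Among all genes tested, 3.45% rose with estrogen, 56% were called for CLA and 18.9% had the lower effect with CLA. The list's mean level was 0.99 to 3.46 log2 CPM with CLA, against 0.83 to 3.46 in the controls at 132 h. It was 3.55 to 4.36 with estrogen, against 0.21 to 3.01 in the controls at 84 h. The estrogen libraries lay above their controls whether or not they were high in skin genes, while the 3 controls at 132 h that were high in skin genes had the highest luminal level of their group. Without the libraries high in skin genes the median luminal effects were +1.31 and +1.79 instead of −0.02 and +2.11, no gene was called for estrogen, 1 was lower with CLA, and 2 of the 24 had a called difference. In bulk tissue fewer cells of a type and less RNA per cell cannot be told apart.

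The keratin Krt7 was the luminal gene called with both agents (+1.25 ± 0.52, adjusted p = 0.0478, and +2.64 ± 0.53, adjusted p = 0.00729), and its CLA call was lost on leaving out any of 15 of the 20 libraries. Krt8, a keratin of luminal cells, had 3.73, 19.8, 41.8, 23.9 and 9.9 CPM with CLA, against 12.5, 13.5, 4.16, 1.69 and 6.19 CPM in its controls. It had 39.1, 30.2, 51.8, 51.1 and 34.7 CPM with estrogen, against 0.777, 0.953, 8.02, 15.5 and 6.45 CPM in its controls. The CLA libraries spread widely and overlapped their controls, while the estrogen libraries lay above theirs. Its effects were +1.37 ± 0.71 (adjusted p = 0.112) and +2.69 ± 0.74 (adjusted p = 0.0423), and the estrogen call was lost on leaving out any of 11 libraries. Folr1, a folate receptor in the list of milk genes, was alike at +1.65 ± 0.37 and +1.92 ± 0.39, with no estrogen call without the libraries high in skin genes (adjusted p = 0.0625). Aqp5, a water channel, rose with estrogen only (+3.16 ± 0.58, with a CLA effect of +0.54 ± 0.55), and lost both the estrogen call and the difference without the libraries high in skin genes.

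Wnt4, a signal downstream of the progesterone receptor, had opposite directions with and without those libraries. It had 0.356, 2.83, 2.83, 3.33 and 1.44 CPM with CLA, against 16.9, 18.6, 15.9, 0.583 and 0.967 CPM in its controls. It had 11.1, 9.69, 19.6, 17.1 and 14.1 CPM with estrogen, against 3.66, 0.333, 1.83, 3.29 and 2.04 CPM in its controls. The 3 high controls at 132 h are the 3 that were high in skin genes. Its CLA effect was −2.29 ± 0.77 (adjusted p = 0.0182) with all libraries and +1.46 (adjusted p = 0.202) without the high ones, a change of direction, and neither the effect without them nor the estrogen effect of +2.66 ± 0.78 (adjusted p = 0.0568) was called. Basal epithelial genes also lost calls without those libraries, but their median CLA effect kept its direction (−1.35 with them, −0.16 without). Of 16, 12 fell with CLA, 2 rose with estrogen and 14 had the lower effect with CLA. The shares over all genes tested were 29%, 3.45% and 18.9%. Without those libraries 4 basal genes fell and 1 rose with CLA, none changed with estrogen and 3 had a called difference. Several basal keratins (Krt5, Krt14, Krt17) are also genes of the skin. The basal genes Acta2, Myh11, Tagln and Cnn1 are also in the smooth muscle and pericyte list. Of the 11 genes in that list 9 fell with CLA, and 8 did so without those libraries. The part of smooth muscle in the basal result was not tested.

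**Figure D3:**
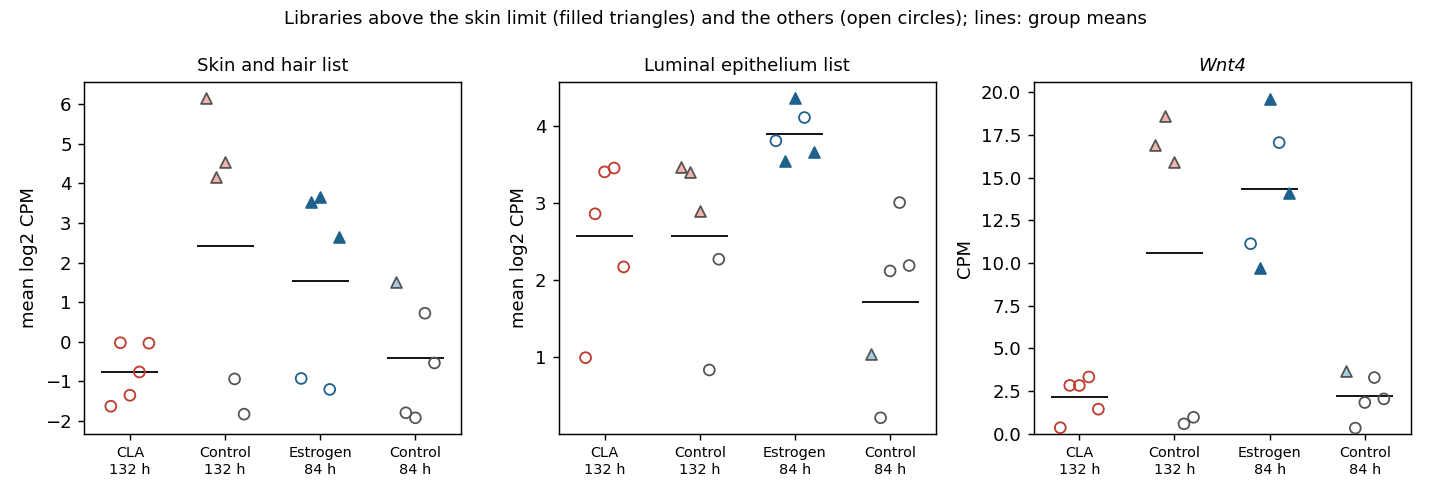
Mean log2 CPM of the skin and hair list and of the luminal epithelium list, and CPM of Wnt4, by library; filled triangles are the 7 libraries whose skin level was above 1.5, open circles the others, and lines the group means. The 3 high controls at 132 h were also the controls with the most Wnt4, while the estrogen libraries were high in Wnt4 with and without skin signal.

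Of the 10 opposite genes with CLA higher that met the naming rule, 5 encode matrix proteins or receptors of the matrix, a grouping made after their names were seen and not tested. Ecm1, an extracellular matrix protein (chr3:95734147-95739569, minus strand, GRCm38), had 230.2, 188, 159.9, 223 and 198 CPM with CLA, against 154, 156, 124, 144 and 142 CPM in its controls. It had 122, 93.1, 117, 121 and 93.8 CPM with estrogen, against 197, 205, 159, 186 and 169 CPM in its controls. All CLA libraries lay above and all estrogen libraries below their own controls, while the CLA libraries overlapped the controls at 84 h. The effects were +0.47 ± 0.11 (adjusted p = 0.000783) and −0.74 ± 0.11 (adjusted p = 0.00028), a difference of +1.22 ± 0.15 (adjusted p = 4.62e-06).

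Efemp1, a fibulin of elastic fibres, went the same ways (+0.91 ± 0.13 and −0.75 ± 0.13), as did the collagen receptor Ddr2 (+0.51 ± 0.11 and −0.63 ± 0.11). Antxr2, a cell surface protein that binds matrix, had effects of +0.65 ± 0.09 and −0.43 ± 0.09, and Ltbp1, which anchors latent TGF-beta in the matrix, of +0.45 ± 0.10 and −0.49 ± 0.10. Nav1, a microtubule-binding protein, had 213, 228, 205, 209.8 and 231 CPM with CLA, against 159, 152, 143, 156 and 162 CPM in its controls. It had 144, 142, 136, 149 and 134 CPM with estrogen, against 186, 192, 166, 177 and 162 CPM in its controls. The groups of each pair were fully apart, with a difference of +0.82 ± 0.08 (adjusted p = 2.59e-07). The estrogen libraries overlapped the controls at 132 h, which ran from 143 to 162 CPM, against 162 to 192 CPM in the controls at 84 h. Fibronectin, Fn1, had 3192, 2281, 2119, 2626 and 2271 CPM with CLA, against 1616, 1406, 1287, 1396 and 1728 CPM in its controls, and 1609.5, 1365, 1373, 1369.9 and 1019.9 CPM with estrogen, against 1923, 2134, 1509, 2117 and 1773 CPM in its controls. The estrogen libraries overlapped their controls, as did the CLA libraries the controls at 84 h. The estrogen effect of −0.49 ± 0.13 (adjusted p = 0.0366) was lost on leaving out any of 8 libraries, against a CLA effect of +0.75 ± 0.13. The gelatinase Mmp2 (+0.62 ± 0.11 and −0.44 ± 0.11) lost its estrogen call without any of 6 libraries. These 8 genes were changed by CLA only once the libraries high in skin genes were left out, with estrogen effects then of −0.56 for Ecm1 and −0.25 for Nav1.

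Most calls in the matrix lists were for CLA. Of 22 collagen and fibroblast genes, 14 rose and 2 fell with CLA, none rose and 2 fell with estrogen, and 14 had the higher effect with CLA and 1 the lower, with median effects of +0.53 and −0.12. Of all genes tested, 27% rose and 29% fell with CLA, 1.97% fell with estrogen and 19.1% had the higher effect with CLA. The mean level of the collagen and fibroblast list was 8.95 to 9.11 log2 CPM in controls at 132 h and 9.25 to 9.43 in controls at 84 h, without overlap. It was 9.49 to 9.63 with CLA and 8.82 to 9.40 with estrogen. Among 17 matrix proteases and inhibitors 12 rose and 3 fell with CLA, 1 fell with estrogen, and the medians were +0.93 and −0.36. The mean level of this list was 3.73 to 4.26 log2 CPM in controls at 132 h and 4.20 to 4.49 in controls at 84 h. The part of these gaps between the controls in either list's result was not tested. Dpp4, a peptidase of progenitor fibroblasts, was lower with estrogen only (−0.65, with a CLA effect of +0.42), just inside the threshold (adjusted p = 0.0486). Leaving out the libraries high in skin genes, Dpp4 had no call, no collagen or fibroblast gene was called for estrogen, 8 had the higher effect with CLA and none the lower, and among the proteases no gene was called for estrogen and 9 had the higher effect with CLA.

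Outside the matrix, the opposite genes with CLA higher included Tpsab1 and Slc7a11. Tpsab1, a mast cell tryptase with a near-identical neighbour that could share its reads, had 8.13, 13.4, 11.5, 7.6 and 18.5 CPM with CLA, against 6.22, 5.41, 2.54, 2.97 and 4.7 CPM in its controls. It had 2.48, 2.46, 1.85, 1.48 and 1.98 CPM with estrogen, against 5.8, 8.96, 4.11, 7.29 and 2.99 CPM in its controls. The groups of each pair did not overlap, and the effects of +1.43 ± 0.31 and −1.50 ± 0.32 differed by +2.93 ± 0.44 (adjusted p = 4.71e-05). Slc7a11, the cystine transporter, had effects of +1.03 ± 0.19 and −0.83 ± 0.20, and its estrogen call (adjusted p = 0.0195) was lost without estrogen library 4 or control library 1 or 2 at 84 h. Both kept a called difference without the libraries high in skin genes, where their estrogen effects of −1.54 and −0.85 were not called.

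In the other direction, lower with CLA and higher with estrogen, Spon1 and Itga3 were opposite with and without the libraries high in skin genes. Spon1 encodes F-spondin, a secreted matrix protein (chr7:113765998-114043370, plus strand, GRCm38). It had 16.6, 17.2, 22.8, 18.1 and 19.8 CPM with CLA, against 28, 30.5, 26.9, 38.5 and 28.3 CPM in its controls. With estrogen it had 93.5, 69.8, 56.7, 66.3 and 49.4 CPM, against 35.9, 35.5, 32.3, 43.3 and 37.9 CPM in its controls. The CLA libraries lay below and the estrogen libraries above all controls of their pair. The effects were −0.68 ± 0.14 (adjusted p = 0.000483) and +0.86 ± 0.14 (adjusted p = 0.00115), and without the libraries high in skin genes −0.82 (adjusted p = 0.00143) and +1.10 (adjusted p = 0.0068).

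Itga3, the alpha subunit of a laminin receptor (chr11:95044474-95076801, minus strand, GRCm38), had 13.4, 16.3, 15.1, 17.8 and 12.8 CPM with CLA, against 33, 29.6, 28.3, 24 and 21.3 CPM in its controls. It had 35.4, 33.2, 36.6, 40.4 and 31.8 CPM with estrogen, against 21.5, 22.1, 25.6, 25.3 and 22.4 CPM in its controls. Again no library crossed to the other side within its pair, and the effects were −0.85 ± 0.11 and +0.60 ± 0.11, or −0.58 and +0.67 without the libraries high in skin genes. Rbm20, a splicing regulator, was opposite at −1.23 ± 0.22 and +1.74 ± 0.21. Without those libraries its CLA effect of −0.51 was not called (adjusted p = 0.0795). Hey1, a target of Notch signalling (−0.50 ± 0.13 and +0.48 ± 0.13), and Cobl, an actin nucleator (−0.96 ± 0.16 and +0.62 ± 0.16), were called for CLA only without them, and on leaving out single libraries lost the estrogen call in 8 and 5 cases.

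**Figure D4:**
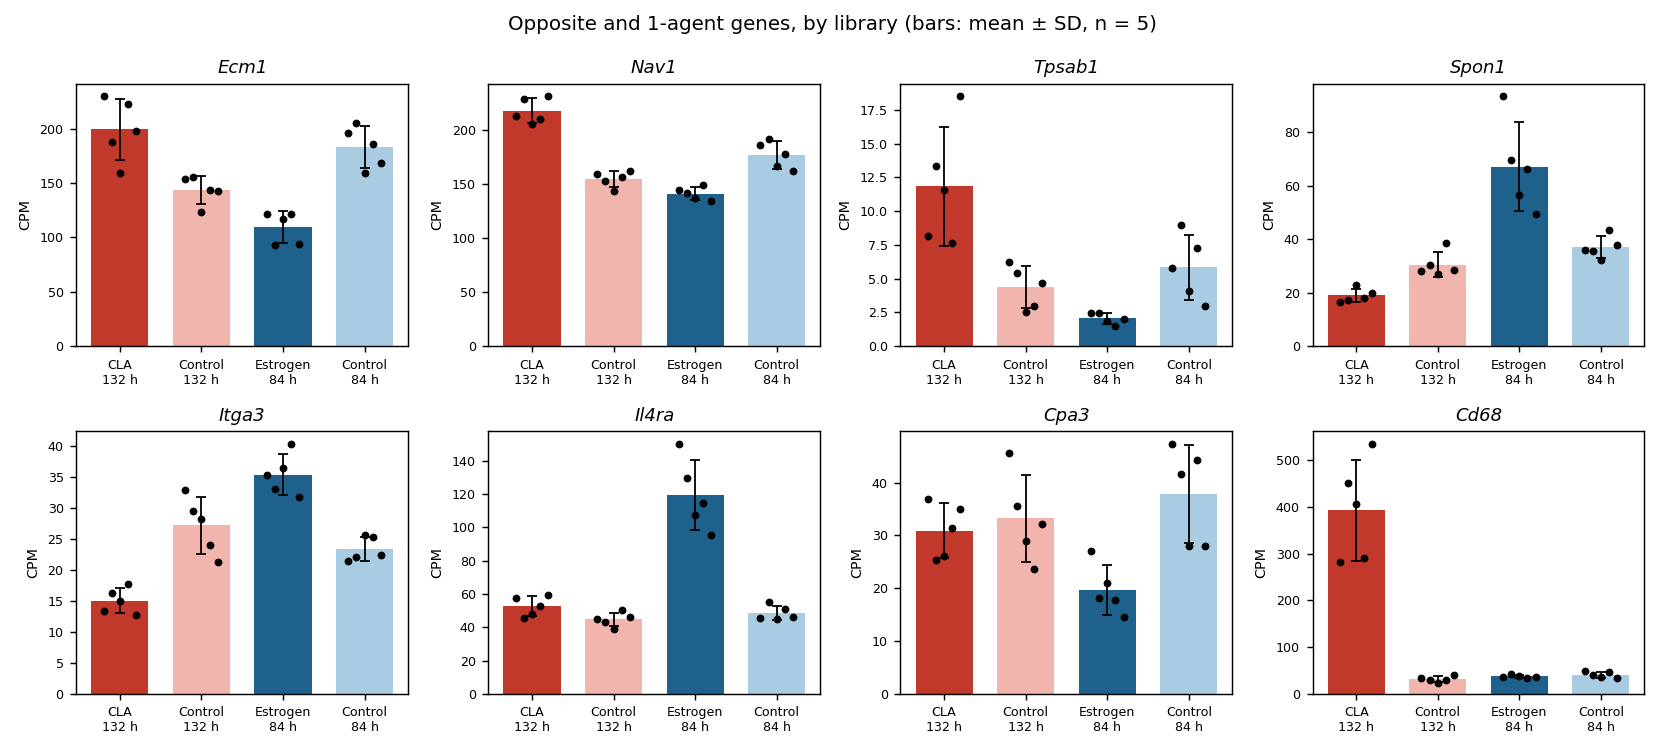
CPM by library (points) with the mean and SD of 5 mice (bars) for genes that responded oppositely (Ecm1, Nav1, Tpsab1, Spon1, Itga3), to estrogen only (Il4ra, Cpa3) and to CLA only (Cd68), in CLA at 132 h, control at 132 h, estrogen at 84 h and control at 84 h. Ecm1, Nav1 and Tpsab1 were higher with CLA and lower with estrogen, Spon1 and Itga3 the reverse, and Cd68 stood at a similar level in the 3 groups without CLA.

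Genes of macrophages, which clear debris and take up lipid from dying fat cells, were changed by CLA only. Of 17 macrophage genes 15 rose with CLA, none changed with estrogen, and all 15 had a called difference, with median effects of +1.70 and +0.05. Among all genes tested 27% rose with CLA, 5.42% were called for estrogen and 38% had a called difference. Cd68, a lysosomal glycoprotein of macrophages (chr11:69664213-69666153, minus strand, GRCm38), had 281, 451, 405, 289.7 and 535 CPM with CLA, against 33.9, 29.6, 23.7, 29.3 and 40.5 CPM in its controls. It had 35.6, 42, 38.4, 34.5 and 36.5 CPM with estrogen, against 48.1, 40.8, 35.2, 46.1 and 34 CPM in its controls. The CLA libraries stood far above every other library, and the estrogen libraries lay among the controls. Its effects were +3.64 ± 0.18 (adjusted p = 5.15e-11) and −0.13 ± 0.17 (adjusted p = 0.718), a difference of +3.77 ± 0.24 (adjusted p = 8.12e-09). Trem2, a lipid receptor of macrophages in fat, averaged 148 ± 47.1 CPM with CLA and 4.02 ± 2.01 CPM in its controls, and 3.29 ± 0.763 CPM with estrogen and 4.9 ± 1.73 CPM in its controls. Its effects differed by +5.80 ± 0.44 (adjusted p = 4.74e-08), and those of the macrophage marker Adgre1 by +3.43 ± 0.38 (adjusted p = 2.57e-06).

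The lists below stand beside 27% of all genes tested that rose with CLA, 29% that fell and 38% with a called difference. Among 18 chemokines and cytokines 15 rose with CLA and 13 had a called difference. Ccl9, a chemokine of macrophages, had effects of +3.65 ± 0.18 and −0.12 ± 0.16. Ccl8 was the one chemokine that rose alike (+0.69 and +0.95). Its estrogen libraries overlapped their controls, and no gene of the list was called for estrogen without the libraries high in skin genes. Of 16 genes of lipid-associated macrophages, 13 rose and 1 fell with CLA and 11 had a called difference, with medians of +2.28 and −0.04. Of 14 genes of MHC class II and of dendritic cells, 10 rose and 1 fell with CLA and 9 had a called difference. Lysosomal genes (21 of 22 higher with CLA, 19 with a called difference) had the same pattern, with no member called for estrogen. The interferon list differed: 13 of 16 rose with CLA and 4 had a called difference, and the list's level in CLA library 3, 6.48 log2 CPM, stood apart from the other 4 CLA libraries (3.98 to 4.48). With the libraries high in skin genes left out 2 of the 16 were called for CLA and 1 had a called difference.

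Stress and growth signals were mixed. Gdf15, a stress hormone, averaged 26 ± 9.17 CPM with CLA and 0.625 ± 0.28 CPM in its controls, and 0.749 ± 0.136 CPM with estrogen and 0.583 ± 0.167 CPM in its controls. Atf3, a transcription factor induced by stress, had effects of +4.49 ± 0.30 and −0.56 ± 0.29, a difference of +5.05 ± 0.41 (adjusted p = 9.95e-08). Over all genes tested 27% rose and 29% fell with CLA. In the integrated stress response list 12 of 22 rose and 2 fell with CLA, and 3 rose and 2 fell with estrogen. Stc2, a secreted glycoprotein in that list, was the member changed by estrogen only. Fgf10, a fibroblast growth factor that acts on epithelium during budding of the gland, had 163, 197, 233, 173 and 163 CPM with CLA, against 62.9, 63.6, 72.6, 69.2 and 73.5 CPM in its controls. It had 92.6, 67.4, 79.2, 84.1 and 65.6 CPM with estrogen, against 63.2, 65.3, 65.5, 73 and 67.8 CPM in its controls. The CLA libraries lay above all others, and the effects were +1.44 ± 0.10 and +0.22 ± 0.10 (adjusted p = 0.223 for estrogen), a difference of +1.23 ± 0.14 (adjusted p = 2.69e-06). The transcription factors Etv5 and Etv4, both induced by such signals, were in different classes. With all libraries Etv5 rose with CLA only (+1.44, against +0.56 with estrogen) and Etv4 with estrogen only (+2.60, against +0.23 with CLA). Without the libraries high in skin genes both were called with both agents and neither had a called difference, Etv4 at +1.94 and +2.77 and Etv5 at +1.61 and +0.94. Cacna1a, the pore of another calcium channel, rose with CLA only (+2.06 ± 0.09), against an estrogen effect of −0.08 ± 0.09.

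Genes of fat cells, vessels and metabolism fell with CLA. Across all genes tested, 29% fell with CLA, 5.42% were called for estrogen and 38% had a called difference. Of 18 genes of the mature fat cell, 15 fell with CLA, none changed with estrogen and 12 had a called difference, with medians of −1.01 and −0.10. The hormone gene Adipoq averaged 540.2 ± 125 CPM with CLA and 1461 ± 198 CPM in its controls, and 1236 ± 79.3 CPM with estrogen and 1446 ± 109 CPM in its controls. Its effects of −1.44 ± 0.13 and −0.23 ± 0.13 differed by −1.21 ± 0.18 (adjusted p = 4.29e-05). In fatty acid and triglyceride synthesis 17 of 20 fell with CLA, all 17 with a called difference and none with an estrogen call. Fasn, the fatty acid synthase, had effects of −2.11 ± 0.28 and +0.11 ± 0.27, and the glucose transporter Slc2a4 of −1.85 ± 0.22 and −0.06 ± 0.21. Fatty acid oxidation was less divided: 18 of 19 fell and 1 rose with CLA, but 3 had a called lower effect with CLA (0 without the libraries high in skin genes) and 1 a higher. The one that rose was Cpt1a, which admits fatty acids to the mitochondrion (+1.34 ± 0.14, against +0.08 ± 0.14 with estrogen). Oxidative phosphorylation was similar, with 24 of 24 lower with CLA, none called with estrogen and 15 with a called difference (2 without the libraries high in skin genes, where the medians were −0.84 with CLA and −0.34 with estrogen), beside the lower mitochondrial share of the CLA libraries given above. The part of that share in the result was not tested. Of 20 genes of endothelium and VEGF signalling, 16 fell and 1 rose with CLA and 15 had a called lower effect; Dll4, the Notch ligand of sprouting vessels, had effects of −1.66 ± 0.12 and +0.20 ± 0.12.

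**Figure D5:**
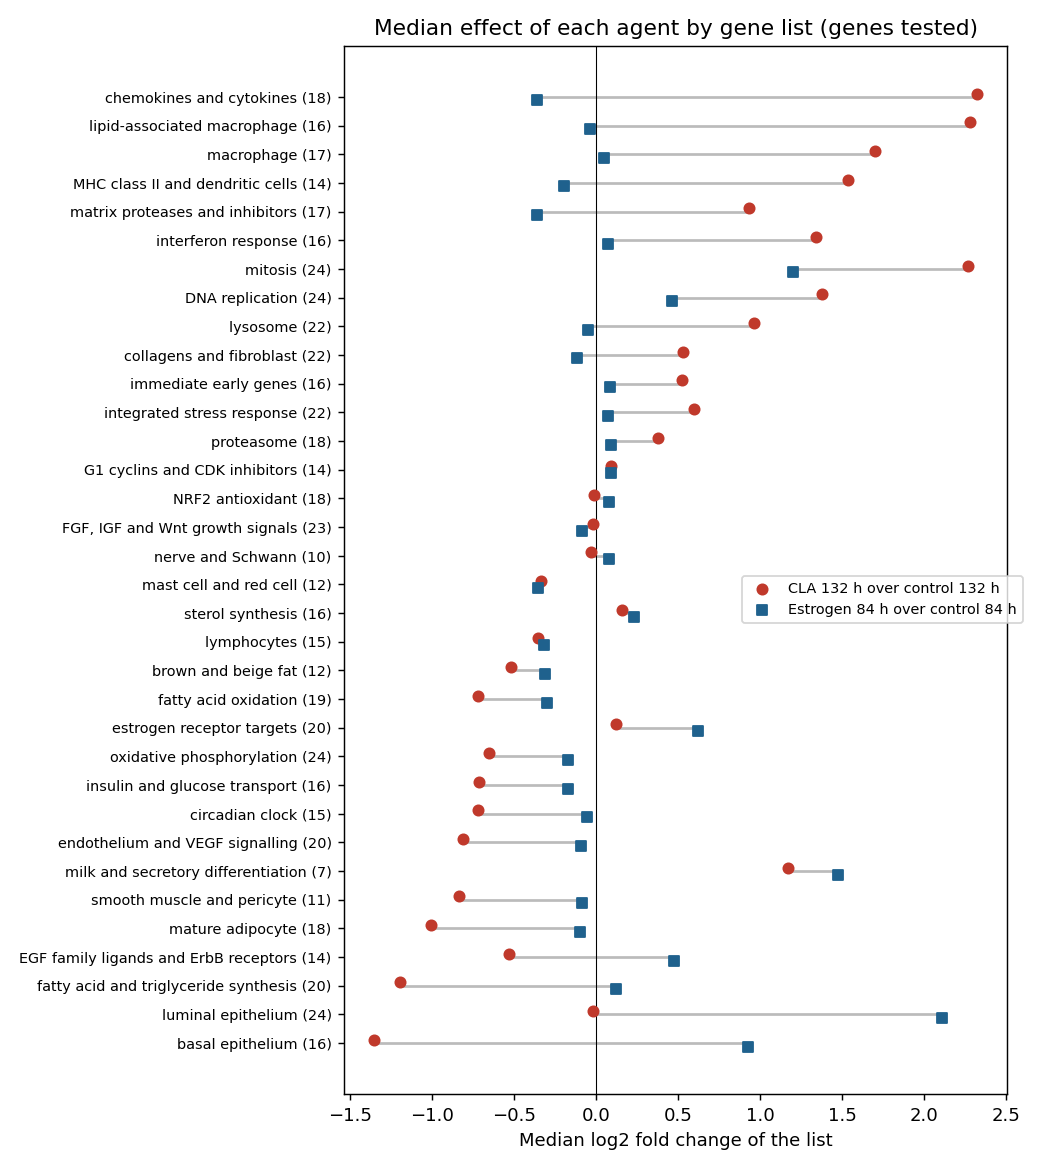
Median log2 fold change of each gene list with CLA at 132 h (red circles) and with estrogen at 84 h (blue squares), ordered by the median difference, with the number of genes tested in brackets; the skin and muscle lists are left out. Both medians are well above 0 in mitosis, at +2.27 with CLA and +1.20 with estrogen, while those of the macrophage list are +1.70 and +0.05.

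Genes changed by estrogen only included few that stood without the libraries high in skin genes: of 104 higher and 69 lower, 12 and 0 kept the class, while the estrogen effect kept its sign in all 173. Il4ra, the receptor of interleukin 4 (chr7:125552120-125579474, plus strand, GRCm38), had 57.6, 45.8, 48.2, 52.6 and 59.5 CPM with CLA, against 45.1, 43, 39.2, 50.3 and 46 CPM in its controls. It had 150.3, 129.9, 108, 115 and 95.8 CPM with estrogen, against 45.5, 55.2, 45.3, 51.1 and 46.3 CPM in its controls. The estrogen libraries lay far above all others, and the CLA libraries overlapped their controls. Its effects were +0.24 ± 0.11 (adjusted p = 0.0607) and +1.30 ± 0.11 (adjusted p = 1.69e-06), a difference of −1.06 ± 0.15 (adjusted p = 2.05e-05), and −1.29 (adjusted p = 0.000554) without the libraries high in skin genes.

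Stc2 had 6.53, 16.4, 25.6, 35.4 and 20.2 CPM with CLA, against 42.8, 39.7, 31.2, 24.4 and 23.9 CPM in its controls. It had 122, 92.6, 154, 154 and 92.7 CPM with estrogen, against 12.6, 17, 29.6, 37.9 and 31.2 CPM in its controls. The estrogen libraries were again apart, with effects of −0.63 ± 0.36 and +2.26 ± 0.37. Col7a1, the collagen of the fibrils that anchor epithelium (−0.29 ± 0.34 and +2.28 ± 0.35), and Slc12a2, a salt cotransporter of secretory epithelium (−0.17 ± 0.18 and +1.12 ± 0.18), also kept the class without the libraries high in skin genes, with differences of −2.46, −1.78 and −1.26 for the 3 genes. Their adjusted p-values for the difference were then 0.0269, 0.0421 and 0.0276.

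The genes lower with estrogen only included several of connective tissue and mast cells. Itga11, a collagen receptor of fibroblasts, had effects of +0.02 ± 0.17 and −1.15 ± 0.17, Col6a6, a collagen chain, of +0.34 ± 0.15 and −0.75 ± 0.15, and Duox2, an oxidase that makes hydrogen peroxide, of +0.55 ± 0.26 and −1.63 ± 0.28. All 3 kept a called difference, and none its estrogen call, without the libraries high in skin genes. Ebf2, a regulator of fat cell identity, fell with estrogen (−0.50 ± 0.07) against −0.08 ± 0.07 with CLA, and had no call without those libraries (estrogen effect −0.45, adjusted p = 0.0921).

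The mast cell genes Cpa3, Mcpt4, Cma1, Tpsb2 and Ms4a2 were all lower with estrogen only. Cpa3, a carboxypeptidase of mast cell granules, had 36.8, 25.3, 26.2, 31.3 and 34.9 CPM with CLA, against 45.6, 35.5, 29, 23.7 and 32.2 CPM in its controls. It had 26.9, 18.1, 20.9, 17.8 and 14.5 CPM with estrogen, against 47.3, 41.5, 27.9, 44.3 and 27.9 CPM in its controls. The estrogen libraries lay below all their controls, while the CLA libraries overlapped theirs. Its effects were −0.11 ± 0.19 and −0.94 ± 0.20, a difference of +0.84 ± 0.28 (adjusted p = 0.0222). The proteases Mcpt4 and Tpsb2, the second with a near-identical neighbour, had estrogen effects of −0.98 ± 0.23 and −0.99 ± 0.20 and CLA effects of +0.08 ± 0.22 and +0.07 ± 0.20. Kit, the growth factor receptor of mast cells and also a luminal marker, fell with CLA only (−0.86). Without the libraries high in skin genes no estrogen effect on Cpa3, Mcpt4 or Tpsb2 was called (−0.66, −0.70 and −0.85), with a called difference in Mcpt4 and Tpsb2. The 6 red cell genes of the same list showed no estrogen call and 1 call for CLA.

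The control groups were also compared with each other. Between controls at 132 h and controls at 84 h, edgeR's quasi-likelihood test called 0 genes, with 2132 of 17180 at an unadjusted p under 0.05, while DESeq2 called 528. Leaving out control library 4 or 5 at 132 h, edgeR's test called 650 and 502. The absence of calls with all libraries therefore does not show that the control groups were equal. The median absolute log2 difference between the control groups was 0.10, against 0.37 for the CLA effect and 0.14 for the estrogen effect.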

How the data were processed

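RNA-seq of whole mammary glands was deposited as 2 tables of the same 20 libraries. The deposited values used for every test were read counts per gene, and the authors' RPKM values served as an alternative scale; the genome build was GRCm38, per the submitters' processing notes, and for the aligner, the counter and its use of strand: not given in the sources used here. Libraries were poly-A selected and stranded, per the labels' protocols. Total counts, in units of 1000000, were 27.3 ± 4.51 with CLA and 24.4 ± 4.13 in controls at 132 h, and 27.7 ± 5.9 with estrogen and 28.7 ± 3.92 in controls at 84 h (SD, n = 5 each). No 2 libraries agreed within counting noise among 190 pairs.

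Of 47729 genes, 19628 had no count in these libraries and 17180 passed filterByExpr (minimum count 10, minimum total 15) and were tested. One model with a mean per group was fitted over all 20 libraries with edgeR 4.0.16 in R 4.3.3 (TMM scaling, quasi-likelihood test), and the CLA effect, the estrogen effect and their difference were contrasts of it. CPM values use the TMM library sizes. Titles number the animals and give no number shared between groups. Alternatives were DESeq2 1.42.0, limma 3.58.1 on log2(RPKM + 0.1) and log2(RPKM + 1), RLE and upper-quartile scaling, other filters, a threshold of 0.01, title run as a term, each pair of groups alone and each library left out; after the data were seen, the libraries high in skin genes (limit 1.5, or 2) were left out or the skin level was fitted as a covariate. On simulated counts (17017 genes) the difference was called in 41 of 50 genes raised and 40 of 50 lowered by 1 log2 unit, in 49 and 48 of 50 at 2 units, and in 11 unchanged genes. The changed genes were drawn from those with a mean above 1 log2 CPM, and every other gene had the same mean in all groups. Skin or muscle levels that differ between groups were not simulated, so these rates do not cover them or genes with lower levels.

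The comparison, the 36 gene lists (623 genes, 603 tested) and the named genes were chosen with earlier results of these data known. The naming rule took, among genes with a mean of at least 1 log2 CPM, all treated libraries of a called effect on 1 side of the control mean and called effects of the same sign without the libraries high in skin genes, those with the smallest p-values within each class and direction (10 for alike and opposite, fewer elsewhere), a set panel of 15 genes, 3 genes of each list and every opposite gene of the lists. Ccnb2, Egfr, Cited1, Folr1, Krt7, Ehhadh, Igfbp3, Etv4, Erbb3, Cpa3, Mcpt4, Cdk1, Top2a, Mcm6, Cenpa, Cenpf and other members of the lists with a value in the text were named after their values were seen. Promoter letters are from RefSeq on GRCm38.p6. Some results are not reported here.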

Additional observations from a re-analysis of the deposited data

Results flagged for a closer look

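The CLA and estrogen effects differed in 6536 genes (edgeR's quasi-likelihood test of the difference), and this is the subject of the report. Single libraries far from the other 4 of their group were sought in 484 groups of 5 values, from 85 genes and 36 lists, and 21 were found (4.34%), where chance alone gives about 1 in 20.

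Among the shared genes, estrogen library 5 was low in Cacna1g (12.4 CPM) and in Plk2 (46.3 CPM), CLA library 1 was low in Stac2 (19.9 CPM), and CLA library 3 was high in Cdk1 (39.7 CPM). Control library 1 at 84 h was low in Spon2 (13.7 CPM) and high in Aldh6a1 (399 CPM) and Acadsb (32.9 CPM). Estrogen library 4 was high in Agps (120.4 CPM) and estrogen library 2 in Peg10 (20.6 CPM), an imprinted gene of placenta whose estrogen call (adjusted p = 0.0275) was lost on leaving out any of 5 libraries, this one among them.

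Among the other genes, CLA library 3 was high in Areg (2.75 CPM). Control library 4 at 132 h was high in Igfbp5 (1185 CPM) and Atf3 (9.44 CPM) and low in Aqp5 (0.991 CPM). Control library 5 at 132 h was high in Trem2 (7.51 CPM), and control library 4 at 84 h in Trem2 (7.93 CPM) and Adgre1 (59.3 CPM).

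Of the list means, the interferon list was high in CLA library 3 (6.48 log2 CPM) and low in control library 3 at 132 h (3.46 log2 CPM). The basal list was high in estrogen library 3 (5.59 log2 CPM), the circadian list low in estrogen library 4 (4.93 log2 CPM), and the skeletal muscle list high in CLA library 1 (1.69 log2 CPM).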

How the results depend on the processing

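RLE scaling, upper-quartile scaling and the stricter filter kept each total of called genes, and of each class, within 1.5 times of the value reported; by direction, upper-quartile scaling left 57 genes that fell alike, against 109. DESeq2 called more: 1617 genes for estrogen, 528 between the controls, 435 alike, 278 opposite and 283 for estrogen only. Opposite genes numbered 66 with no filter on low counts, 59 on log2(RPKM + 0.1) and 56 on log2(RPKM + 1). At an adjusted p of 0.01, where fewer calls follow from the construction, there were 4322 genes with a difference, 314 for estrogen, 112 alike, 19 opposite and 47 estrogen only. Without the 7 libraries high in skin genes there were 3193 with a difference, 207 for estrogen, 87 alike, 6 opposite, 3012 CLA only and 17 estrogen only. Without the 6 above a limit of 2 there were 3464, 301, 119, 8, 3224 and 23. With the skin level as a covariate, 60 were opposite and 112 estrogen only. Leaving out single libraries gave 5935 to 6708 genes with a difference, 8928 to 9691 for CLA, 433 to 1158 for estrogen, 0 to 650 between the controls, 116 to 408 alike, 41 to 198 opposite, 5139 to 5829 CLA only and 81 to 229 estrogen only. The lowest counts for estrogen, alike, opposite and estrogen only were without control library 1 at 84 h, the highest for estrogen and alike without control library 3 at 84 h, and the highest for opposite and between the controls without control library 4 at 132 h. Of 200 differences of named genes, 164 kept direction and side of the threshold without the 7 libraries, 34 lost the call and 2 reversed: the skin genes Padi3 (+0.24) and Ivl (+1.35). Without the 6, Padi3 (+0.67), Ivl (+2.84) and Tchh (+0.99) reversed. The cause of these changes was not tested. No paired analysis was possible because the groups share no replicate numbers. Only 2 estrogen libraries and 2 controls at 132 h remain without the 7.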

Other observations

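Regulators of the step into DNA synthesis differed between the agents less uniformly than the genes of mitosis. Of 14 cyclins, kinases and inhibitors of that step, 5 rose and 2 fell with CLA and 1 rose with estrogen. Over all genes tested 56% were called for CLA (27% higher, 29% lower), near the share of this list. Cdk4, the partner of the D cyclins, rose with both (+0.72 with CLA and +0.32 with estrogen) and more with CLA. Its estrogen libraries overlapped their controls, and no gene of this list was called for estrogen without the libraries high in skin genes. E2f1, a transcription factor of S phase, rose with CLA only (+1.32, against +0.27 with estrogen), and so did Cdkn2a, an inhibitor of the D cyclin kinases (+2.65, against +0.33 with estrogen). Ccnd1, cyclin D1, was called for CLA (+0.76), with an estrogen effect of +0.67 that was not called and no called difference. Of 16 immediate early genes, 8 rose with CLA and 2 with estrogen, or 10 and 1 without the libraries high in skin genes. Fos, a transcription factor induced by growth signals, rose with CLA only (+2.56, against +0.15 with estrogen).

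Other lists described the tissue around the epithelium. Their counts stand beside 56% of all genes tested called for CLA (27% higher, 29% lower) and 5.42% for estrogen. Of 18 proteasome genes, 16 rose and 1 fell with CLA, none was called for estrogen, and 11 had the higher and 1 the lower effect with CLA. Of 15 lymphocyte genes none rose and 2 fell with CLA, and none was called for estrogen; Cd8a, a marker of killer T cells, had a CLA effect of −2.04 and an estrogen effect of +1.51. Of 15 circadian genes 7 fell with CLA and 1 with estrogen, and Nr1d1, a repressor of the clock, had effects of −1.63 and +0.11. Of 16 insulin and glucose transport genes 12 fell and 1 rose with CLA and none was called for estrogen. Of 12 genes of brown and beige fat 5 fell and 1 rose with CLA, and 1 fell with estrogen. In the list of antioxidant genes driven by NRF2 the members split, 7 of 18 higher and 5 lower with CLA and 1 lower with estrogen: Hmox1, which breaks down heme, had effects of +2.26 and −0.06, and Tkt, of the pentose phosphate pathway, −1.89 and +0.29. Of 16 sterol synthesis genes 2 rose and 3 fell with CLA, and none was called for estrogen. Of 15 skeletal muscle genes, 2 fell with CLA and none was called for estrogen or for the difference. Without the libraries high in skin genes the called differences numbered 6 of 18 in the proteasome list, 3 of 15 in the circadian list and 6 in the insulin list. In the lymphocyte list 1 gene then had the higher effect with CLA and 0 the lower, against 0 and 3 with all libraries. No brown fat, circadian or antioxidant gene was called for estrogen without the libraries high in skin genes.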
